A study of Paulownia elongata with 6 samples.

Results

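The 150 transcript models described here were found in leaves of Paulownia elongata, a fast-growing tree. Each was detected in at least 1 control library at 25 °C and stood at least 4 times higher in every library from plants held at 40 °C. They were chosen by measured values, on CPM (a model's estimated reads scaled to counts per 1000000 reads of its library). The highest of the 3 controls had to reach 2.5 CPM, and the lowest of the 3 heat libraries had to reach 4 times that highest control. Of the 43380 models in the deposited tables, 31063 met the first limit and 150 of those, or 0.483%, also met the second. The difference between heat and control in these models is therefore what selected them and is given as a description. Test results for it, given later, are a description too, and nothing is read from them.

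The heat group consists of 3 leaf libraries from plants exposed to 40 °C for 24 hours, with light and dark periods of 12 hours each. The control group consists of 3 leaf libraries labelled 25 °C, with no duration given. All plants carry the labels of 3 years of age and 14 days of growth in a potting soil with mycorrhizae, and no genotype or cultivar is named. Separate plants for the libraries of a group are not stated in the labels, so any p-value here reflects library-to-library spread that may be technical. In bulk leaf RNA, fewer cells of a type and less RNA per cell cannot be told apart.

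A plant leaf responds to heat through heat shock factors, proteins that bind DNA and raise transcription of chaperone genes. Chaperones such as the large HSP100, HSP90 and HSP70 families and the small heat shock proteins hold or refold proteins that heat unfolds. Some chaperones are made in unstressed leaves as well and are raised further in heat, while others are close to absent before stress. The files do not pair their identifiers with gene names, so no model described here can be assigned to these families, and the leaf origin could not be checked with marker genes. Only 2 models are named by identifier, and the others are described by their values.

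Depth ran from 2425787 to 3570524 estimated reads in the heat libraries and from 730315 to 2153266 in the controls. Fragment lengths, read from length minus effective length in models over 1000 bases, were 158.9 to 165.9 bases in heat replicates 1 and 3 and control replicate 3 (long-fragment libraries), and 132.7 to 140.5 bases in heat replicate 2 and controls 1 and 2 (short-fragment libraries). Controls 1 and 2 stood apart from the other 4 libraries. They listed 14122 and 14448 models at 0 reads, against 1182 to 3297 in the others.

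The description "already expressed at 25 °C" is set by the selection for the highest control, and it held only in part for the group. All 150 models had reads in every heat library, the smallest value being 25.5 estimated reads. In the controls, 77 models had reads in all 3 libraries, 52 were listed at 0 in 1 library and 21 in 2. A level of 2.5 CPM or more was reached in all 3 controls by 35 models, in 2 controls by 36 and in a single control by 79. For 58 of those 79 the single control was control 3. The limit of 2.5 CPM corresponds to 3.34, 1.83 and 5.38 reads in controls 1 to 3. A listed 0 allows up to 3 reads, or 2.24, 4.11 and 1.39 CPM in controls 1 to 3, so a 0 in control 2 does not show that a model was below the limit. Such allowances cover counting error only. The control that set a model's highest value held a median of 8.35 reads, from 2 to 489, and 64 models had 10 or more there. For 11 models that control held under 3 reads, within what a listed 0 allows.

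**Figure D1:**
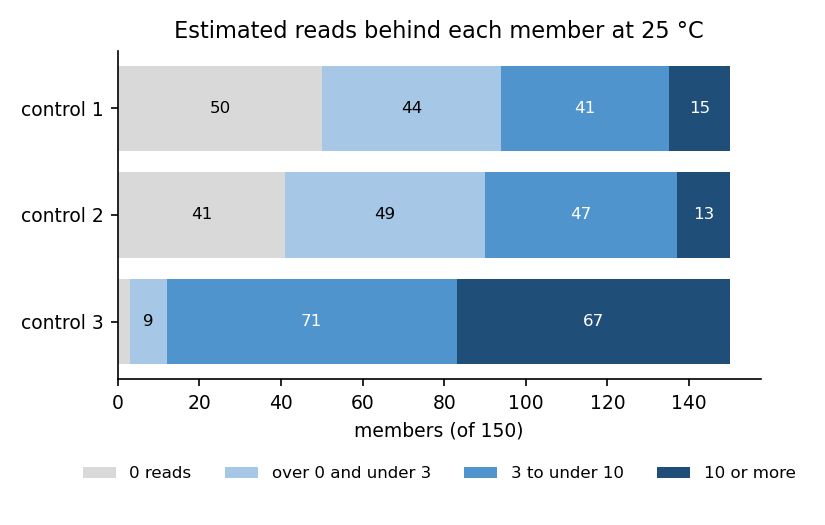
Number of the 150 models by estimated reads in each control library (bars add up to 150; colours give the read class). Control 1 listed 50 models at 0 and control 2 listed 41, while control 3 listed 3 at 0 and 67 at 10 reads or more.

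Control 3 supplied the highest control value for 104 models, control 2 for 37 and control 1 for 9. Among the 12183 models with the same level limits (a highest control of 2.5 CPM or more and a lowest heat library of 10 CPM or more), control 3 was the highest control in 55.7%. Without control 3, 1093 models met the limits and 92 of them were among the 150. Without heat replicate 1 the number was 321, and without controls 1 and 2 it was 277, with 125 of the 150. Fewer heat libraries can only keep or add models, and fewer controls loosen the ratio limit. Part of these rises is therefore built into the selection. The median model stood at 0.748, 2.74 and 3.88 CPM in controls 1 to 3. Measured per length, as TPM (transcript abundance scaled by effective length), the medians were 0.299, 0.867 and 1.83, below the medians of all models in the same libraries, which were 1.62, 2.18 and 5.60 TPM. In heat their median levels were 16.1, 25.4 and 24.3 TPM in replicates 1 to 3, above the medians over all models of 5.71, 8.22 and 6.61 TPM. The selection sets low control levels beside high heat levels, so both positions are a description.

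**Figure D2:**
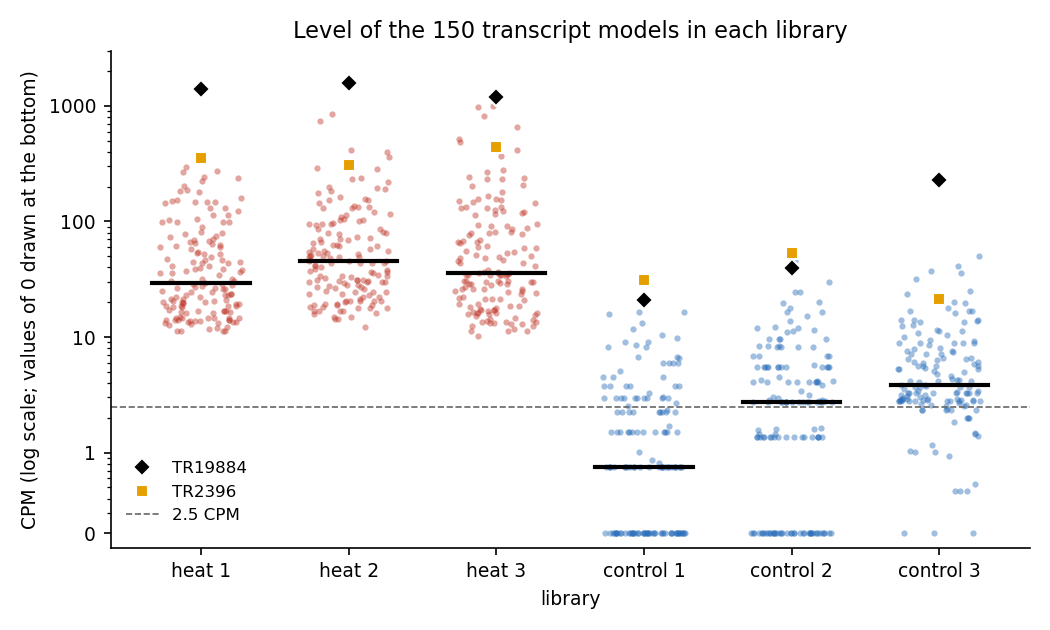
CPM of the 150 models in each library (points; log axis, values of 0 at the bottom; heat in red, controls in blue), with the median as a bar and the 2 named models as larger symbols. Medians were 29.1, 45.2 and 35.8 CPM in heat and 0.748, 2.74 and 3.88 CPM in controls 1 to 3; the separation is set by the selection.

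Together the 150 models took 1.003%, 1.38% and 1.53% of the reads in heat replicates 1 to 3. They took 0.0414%, 0.0763% and 0.126% in controls 1 to 3. The group values were 1.30 ± 0.271% in heat and 0.0813 ± 0.0426% in the controls (SD, n = 3 in each). The exact 95% binomial interval was 0.0701 to 0.0829% in control 2, the shallowest library, and covers counting error only. The control shares differed by more than their counting error, with control 3 the highest and control 1 the lowest. The 10 models with the highest mean heat CPM held 39.4% of the summed mean heat CPM of the 150.

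The highest mean heat CPM, among models with 10 or more reads in each of the 6 libraries, belonged to TR19884|c0_g1_i1|m.39325. This model spans 2049 coding bases. It stood at 1413, 1564 and 1196 CPM in heat replicates 1 to 3, from 5045, 3795 and 2976 reads. At 25 °C it stood at 21.0, 39.6 and 227 CPM in controls 1 to 3, from 28.1, 28.9 and 489 reads. The 3 heat libraries lay close together, and control 3 lay well above controls 1 and 2. Means over the 3 libraries were 1391 ± 185 CPM with heat (SD, n = 3) against 95.9 ± 114 CPM for controls (SD, n = 3), which is 14.5 times higher. With reads pooled by group it was 10.8 times higher, and counting error alone allows 9.88 to 11.8 (exact 95% interval). The SD of the controls was larger than their mean.

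The largest ratio of lowest heat to highest control, among the remaining models with 10 or more reads in each library, belonged to TR2396|c0_g1_i1|m.5184, of 1581 coding bases. It stood at 353, 306 and 439 CPM in heat replicates 1 to 3, while controls 1 to 3 gave 31.4, 53.4 and 21.4 CPM. Its control values rest on 42, 39 and 46.1 reads. In this model control 3 was the lowest control and control 2 the highest, unlike in TR19884. Mean levels were 366 ± 67.6 CPM with heat and 35.4 ± 16.4 CPM without (SD, n = 3 each), 10.3 times higher. Pooled reads gave 12.1 times higher, with counting error allowing 10.1 to 14.6 (exact 95% interval). Per length its mean level was 79.5 ± 17.0 TPM in heat and 5.83 ± 2.38 TPM in the controls. TR19884 stood at 228 ± 40.0 and 13.3 ± 16.8 TPM, so it was the more abundant of the pair per length in heat, while in the controls the difference lay within the spread of TR19884. Each is the single model of its gene by the identifiers.

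Another 5 models had 10 or more reads in every library, so that 7 of the 150 reach that count in each control. Their coding lengths were 675 to 2436 bases. The steadiest control values among the 5 were 15.7, 16.4 and 13.9 CPM in controls 1 to 3, beside 72.8, 94.8 and 77.0 CPM in heat replicates 1 to 3. That model had the smallest ratio of group means of all 150, at 5.31. A second of the 5 stood at 32.1, 24.6 and 31.6 CPM in controls 1 to 3 and at 153, 233 and 239 CPM in heat replicates 1 to 3, a ratio of means of 7.07. Another stood at 16.5, 17.8 and 19.7 CPM in the controls and at 185, 94.8 and 143 CPM in heat, a ratio of means of 7.84. In these 3 models the controls lay within a narrow band and the heat libraries differed more from each other in CPM. Their control 2 values rest on 12, 18 and 13.0 reads, so nothing is read from the narrow band.

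The 35 models at 2.5 CPM or more in every control are those for which each control met the limit set for the highest one, which in control 2 takes 1.83 reads. Their median control mean was 8.64 CPM, from 4.17 to 95.9, and their median heat mean was 115 CPM, from 32.4 to 1391. The ratio of group means had a median of 10.5 and ran from 5.31 to 86.9. The other 115 models had a median control mean of 2.04 CPM, a median heat mean of 28.4 CPM and a median ratio of means of 15.2. The 35 models took 0.537%, 0.731% and 0.803% of reads in heat replicates 1 to 3, more than the 115 others, which took 0.466%, 0.648% and 0.726%. In 24 of the 35 control 3 was again the highest control.

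Over all 150, the ratio of lowest heat to highest control had a median of 4.99, with 74 models at 5 or more, 18 at 8 or more and 11 at 10 or more. The largest was 74.5. That model, of 2730 coding bases, stood at 223, 417 and 810 CPM in heat replicates 1 to 3 and at 2.99, 0 and 2.36 CPM in controls 1 to 3, from 4, 0 and 5.08 reads. The next, of 1665 coding bases, had a ratio of 23.5, with 236, 745 and 652 CPM in heat and 3.28, 5.48 and 10.03 CPM in controls 1 to 3. Both had their lowest heat value in heat replicate 1. The ratio of group means was 8 or more in 134 models and 32 or more in 13. Just inside the ratio limit the values were 4.002, 4.013 and 4.019, and just outside 3.995, 3.992 and 3.979. Just inside the control limit the highest controls were 2.51, 2.52 and 2.55 CPM, and just outside 2.48, 2.46 and 2.45 CPM. Another 85 models had a ratio from 3.5 to under 4, beside 43 members from 4 to under 4.5.

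**Figure D3:**
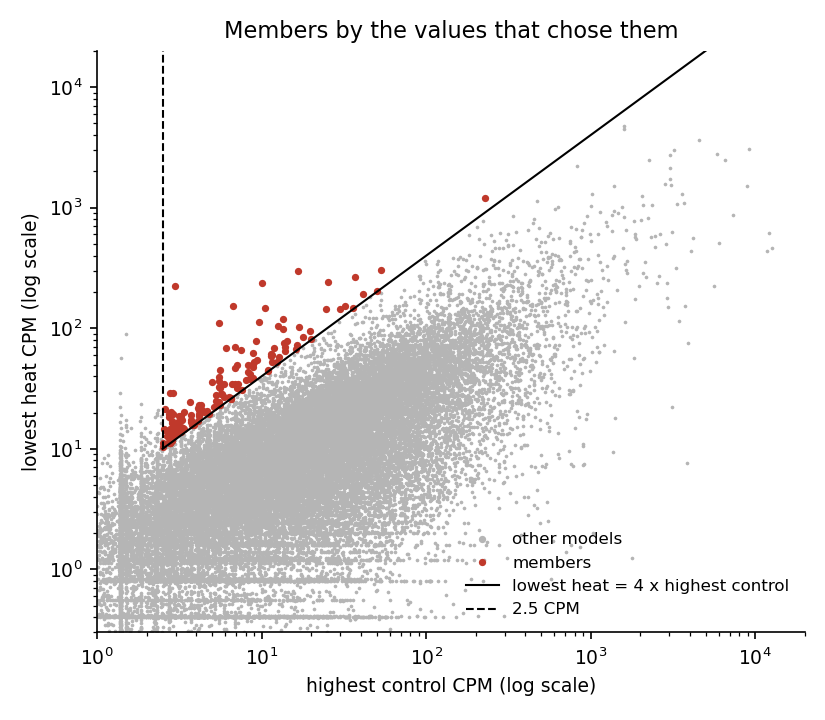
Lowest heat CPM against highest control CPM for each model (log axes; models from 1 CPM on the horizontal and 0.3 CPM on the vertical axis are drawn). The 150 members (red) lie above the line of 4 times the highest control and right of 2.5 CPM, as the selection requires, and 115 of them lie under 10 CPM in the highest control.

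A related set had the same ratio and at least 10 CPM in every heat library, but under 2.5 CPM in the highest control, and held 68 models. Its median heat mean was 19.3 CPM and its median control mean 0.774 CPM, against 36.0 and 2.64 CPM in the 150. Both sets are defined by these values, so the difference is a description. Near the limit between them, 20 models had a highest control from 2 to under 2.5 CPM and 38 members had one from 2.5 to under 3 CPM. The mirrored selection, with controls at least 4 times the highest heat library and that library at 2.5 CPM or more, held 28 models.

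Within the heat group, the 150 models differed from library to library about as much as other models of similar level. The median coefficient of variation across the heat libraries was 29.1%, beside 27.7% in the 12033 models that met the same level limits and were not members. The highest heat library was under 2 times the lowest in 99 models and 4 times or more in 6. Heat replicate 1 was the lowest heat library in 100 models and the highest in 11, and heat replicate 2 was the highest in 88. Among all models with the same level limits, heat replicate 1 was the lowest in 54.8% and heat replicate 2 the highest in 60.3%. Heat replicate 1, the deepest library, thus set the lower value for most of the 150.

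The 6 models with the widest spread in heat did not share a single order of libraries. The widest, of 243 coding bases, stood at 113, 34.2 and 417 CPM in heat replicates 1 to 3 and at 0.748, 0 and 5.90 CPM in controls 1 to 3. It was also the most abundant of the 150 per length, at 361, 111 and 1470 TPM in heat replicates 1 to 3. The next, of 300 coding bases, stood at 160, 62.6 and 519 CPM in heat and at 2.24, 2.74 and 8.81 CPM in controls 1 to 3. In both, heat replicate 3 was the highest heat library, heat replicate 2 the lowest and control 3 the highest control. In 4 of the 6 models heat replicate 2, the short-fragment heat library, was the lowest, and in the others it was heat replicate 1. Whether fragment length had a part in these values was not tested.

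Fragment length class went with the size of the difference over the whole set. On the scale of log2 CPM with a prior count of 1, the 150 models were a median of 2.65 higher in heat replicates 1 and 3 than in control 3, the long-fragment libraries. In heat replicate 2 they were a median of 4.69 higher than in controls 1 and 2, the short-fragment libraries. The median over all 23984 tested models was -0.09 in the long-fragment and 0.70 in the short-fragment libraries. The difference was larger in the short-fragment libraries for 130 of the 150, or 86.7%, and for 68.98% of all models with the same level limits. The selection fixes a positive value in both classes, and control 3, the single long-fragment control, set the limit for 104 of the 150. The 2 named models went opposite ways. TR19884 was 2.51 higher on the log2 scale in the long-fragment libraries and 5.74 higher in the short-fragment libraries, while TR2396 was 4.17 and 2.89 higher. Fragment length, depth and the separate position of controls 1 and 2 cannot be told apart here, and their part in the sizes was not tested.

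**Figure D4:**
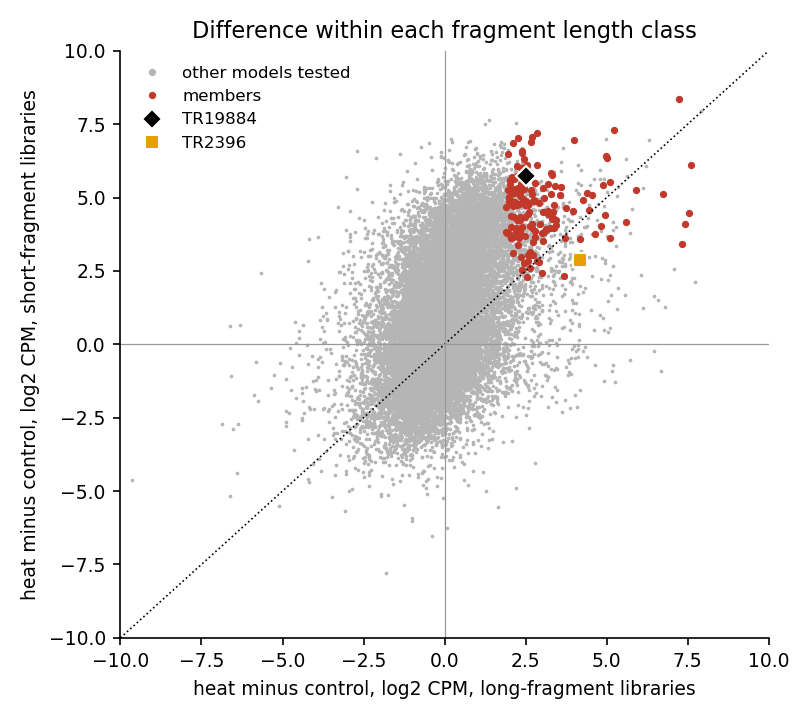
Heat minus control in log2 CPM (prior count 1) among the short-fragment libraries (vertical axis; heat 2 against controls 1 and 2) and among the long-fragment libraries (horizontal axis; heat 1 and 3 against control 3), for the 150 models (red) and the other tested models (grey); the dotted line marks equal differences. TR19884 lies above the line and TR2396 below it, and 130 of the 150 lie above.

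Levels across the set were ordered more alike among the heat libraries than among the controls. Across the 150 models, Spearman's rho between pairs of heat libraries was 0.83 to 0.91 in CPM, and between pairs of controls 0.40 to 0.55. Pairs of a heat library and a control gave 0.555 to 0.635, the lowest of them close to the 0.553 of controls 1 and 2. The selection ties a model's heat level to its highest control, so nothing is read from these pairs. Over the 12183 models with the same level limits the heat pairs gave 0.79 to 0.81 and the control pairs 0.58 to 0.94, with controls 1 and 2 the highest. There control 3 stood at 0.66, 0.60 and 0.66 with heat replicates 1 to 3. With controls 1 and 2, control 3 stood at 0.58 and 0.63. Controls 1 and 2 stood at 0.33 to 0.56 with the heat libraries over the same models. The control levels of the 150 rest on few reads, and models are not independent replicates. Between group means per length, rho was 0.90 across the 150. The selection ties the heat level to the control level, with quartiles of the ratio at 4.46 and 5.85, and both means share each model's length, so nothing is read from this value.

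Coding length was not a criterion of the selection, but CPM is not scaled by length, so the level limits take in longer models more readily. The median over all models is therefore not a like comparison. The files list lengths that are multiples of 3 in 99.99% of models, so they are coding lengths without untranslated parts. The 150 models had a median of 900.0 coding bases, from 180 to 5274, against 369 bases over all models. Models that met the same level limits without being members had a median of 837 bases, close to that of the members. At the long end, 37 of the 150, or 24.7%, had 1500 bases or more, beside 17.5% of those other models. At the short end, 14 of the 150, or 9.33%, were under 300 bases, beside 9.52%. The longest member, of 5274 bases, stood at 64.1, 152 and 94.4 CPM in heat replicates 1 to 3 and at 1.495, 1.37 and 13.9 CPM in controls 1 to 3. The shortest, of 180 bases, stood at 17.3, 23.6 and 15.7 CPM in heat and at 1.02, 0 and 3.78 CPM in controls 1 to 3. Between length and the ratio of lowest heat to highest control, Spearman's rho was 0.00 across the 150, which share the same libraries.

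**Figure D5:**
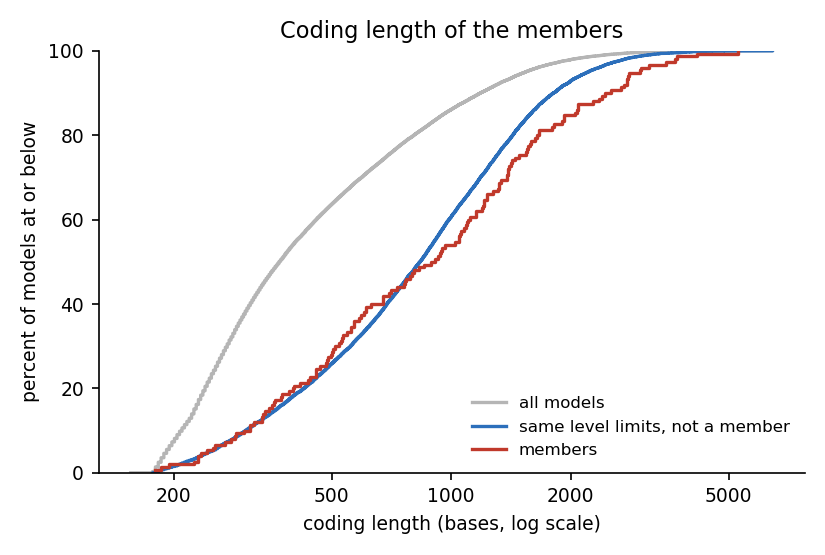
Cumulative percent of models by coding length in bases (log axis) for all 43380 models (grey), the 12033 other models with the same level limits (blue) and the 150 members (red). The members follow the blue curve in the lower part and lie to its right in the upper part, with 24.7% at 1500 bases or more against 17.5%.

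By their identifiers the 150 models belong to 149 genes in 147 components, the assembly's groups of related sequences. A single gene held 2 of them. These had 1479 and 1053 coding bases, with 27.5, 55.7 and 24.5 CPM for the longer and 21.1, 46.7 and 30.2 CPM for the shorter in heat replicates 1 to 3. In controls 1 to 3 the longer stood at 0, 0 and 3.69 CPM and the shorter at 0.748, 0 and 4.18 CPM. The 2 models share a gene, so Salmon may have divided reads between them. A total of 31 members, or 20.7%, came from genes with 2 or more models, close to the 20.8% of other models with the same level limits.

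The genes of these 31 members hold another 46 models that the selection did not take. Of the 46, 29 had every heat library above every control, or 63.0%, beside 24.5% of all models in the deposited tables. None of the 46 had under 10 pooled reads, while all models include many with few reads, so the shares are not like for like. The 46 belong to the members' genes by identifier and may share reads or sequence with the members, which was not checked. The 29 are therefore no independent count. In the fit to all libraries 36 of the 46 were tested, and edgeR's quasi-likelihood test called 0 of them at an adjusted p of 0.05. At an unadjusted p under 0.05, 16 of the 36 were higher in heat and 1 was lower, beside 13.6% of all tested models higher and 16.2% lower. The fitted log2 fold changes of the 36 had a median of 1.51 and ran from -2.03 to 6.76, where the median of all tested models was 0.08. By mean CPM, 7 of the 46 were lower in heat than in the controls.

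Where a gene had other models, the member often carried a minor part of its reads at 25 °C. The median member held 28.5% of its gene's pooled control reads and 65.0% of its pooled heat reads, and 26 of the 31 held a larger share in heat. A model picked for being higher in heat will tend to gain share, so the direction is not a finding. The member held over 50% of the gene's reads in 10 cases in the controls and in 16 cases in heat. After models were summed to genes, 130 genes met the same limits. They included 129 of the 149 genes with a member, and 10 of these 129 had other models. Where Salmon divides reads between models of a gene, the level of a single model is uncertain. The sums do not depend on that division within a gene. How far reads were divided was not tested.

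In the model fitted to all 6 libraries, all 150 were among the 23984 tested, since their heat levels alone carried them past the expression filter. The fitted log2 fold change had a median of 3.53 over the 150 and ran from 2.25 to 7.77, with standard errors of 0.40 to 1.31. For TR19884 it was 3.76 with a standard error of 0.92, and for TR2396 3.23 with a standard error of 0.59. At an adjusted p of 0.05, edgeR's quasi-likelihood test called 0 of the 150, and it called 0.00417% of all tested models higher, a single one. All 150 had an unadjusted p under 0.05, among 3258 tested models, or 13.6%, with such a p that were higher in heat. Their adjusted p-values lay between 0.0755 and 0.0881, with 0.0763 for TR19884 and 0.0755 for TR2396. At a threshold of 0.10 the test called 150 of the 150 and 6.17% of all tested models higher. The same contrast chose the models, so nothing is read from these counts.

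The authors' deposited table lists all 150 as higher in heat at an FDR under 0.05, where it lists 5.06% of all 43380 models so. Its largest FDR among the 150 was 0.0287. Its log2 fold changes, with the sign reversed so that positive means higher in heat, had a median of 3.66 and ran from 2.41 to 7.88. When the authors' deposited table is ordered by p-value, 38 of its first 100 models were among the 150, out of 43380 listed. That comparison rests on the same libraries and contrast that chose the 150, so nothing is read from these counts. DESeq2 called all 150 and 7.19% of all its tested models higher, and edgeR's exact test called all 150 and 9.39%. With limma-voom, 0 of the 150 and 0% of all tested models were called. Of the libraries left out singly, control 3 was the only one without which the quasi-likelihood test made calls, and it then called 150 of the 150 and 34.4% of all tested models higher, 9267 of 26925. That fit keeps controls 1 and 2 alone, which stand apart from the other 4 libraries.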

How the data were processed

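Total RNA from leaves was extracted with Trizol, made into TruSeq libraries and sequenced on a MiSeq as 76-base pairs, per the labels' protocols. The authors quantified each library with Salmon and compared groups with edgeR, per the submitters' processing notes; for software versions and the transcript reference, the entry is not given in the sources used here. The deposited tables hold Salmon's estimated counts, TPM values and lengths, per the file headers. The authors' deposited comparison holds log2 fold changes, p-values and FDR, per the file headers. Its fold changes correlated at r = -1.00 with those fitted here across tested models, so its sign was reversed.

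CPM was estimated reads divided by the library sum. Estimated counts were rounded and tested over all models in R 4.3.3 with edgeR 4.0.16 (expression filter with a minimum count of 10 and total of 15, TMM, robust quasi-likelihood, group alone, Benjamini-Hochberg); alternatives used DESeq2 1.42.0 and limma 3.58.1. The fit was tested on simulated data. Standard errors were derived as the size of the log2 fold change divided by the square root of the quasi-likelihood F statistic. Within fragment length classes, divided at 150 bases, log2 CPM had a prior count of 1. Members and lists were chosen with earlier results of these data known. Named models had 10 or more reads in every library, and were those with the highest mean heat CPM and the largest ratio. The gene lists could not be used, because identifiers carry no names. No sequences were used here.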

Additional observations from a re-analysis of the deposited data

How the results depend on the processing

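The number of models that met the limits was 148 with TMM scaling (124 of them among the 150), 205 with DESeq2 size factors (139 shared), 184 on the deposited TPM values (70 shared) and 130 after summing to genes. It was 315 with a floor of 1 CPM, 78 with 5 CPM, 35 with 2.5 CPM in every control, 381 at a ratio of 3 and 18 at a ratio of 8. Leaving out 1 library gave 154 to 1093. The highest came without control 3 (92 shared), and without heat replicate 1 it was 321. Dropping a heat library can only keep or add models. Dropping a control loosens the ratio limit, though it can also put models under the floor. Part of these rises is therefore built into the selection. Alternatives chosen after seeing the data were: without controls 1 and 2, read minimums, and single fragment classes. They gave 77 with a read in every control, 64 with 10 reads in the highest control, 7 with 10 reads in every library and 277 without controls 1 and 2 (125 shared).

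Of the 150, the quasi-likelihood test called 4 without a filter, where it called 8 of all 43376 models higher. With fragment length class as a covariate it called 9, among 13 of 23984 models. It called 45 without controls 1 and 2, among 171 of 30798 models, in a fit that lends the remaining control the spread of the heat group. DESeq2 called 150, the exact test 150 and a threshold of 0.10 called 150. Leave-one-out counts ran from 0 to 150, the latter without control 3. The replicate block called 2, among 5 of 23984 models. Replicate numbers do not pair libraries by any label. The correlation of deviations was 0.01 for number 1, 0.18 for number 2 and 0.35 for number 3. Pairs with different numbers gave -0.31 to 0.28. The other scalings and filters and length offsets called 0 of the 150 and 1 model in all, and limma-voom called 0 of either.

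The median log2 ratio of group means was 3.80. It ran from 3.40 to 4.54 with 1 library left out, and was 2.80 among the long-fragment libraries, 4.71 among the short-fragment ones and 2.92 without controls 1 and 2. TR19884 and TR2396 were higher in heat in all 17 alternative fits and past the threshold in 3 and 4. The cause of these differences was not tested. Depth limits the control levels, since 3 reads are 4.11 CPM in control 2.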
